A study of Mus musculus with 12 samples.

Results

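Replication-dependent histone genes encode the histones that package newly copied DNA, and 26 of them could be followed on the 12 arrays of this mouse series. They were chosen by symbol: each is a gene of the H1f (linker histone H1), H2ac (H2A), H2bc (H2B) or H4c (H4) series with at least 1 probe set annotated to it alone, among 22180 genes named in this way. By family they comprise 5 H1, 6 H2A, 8 H2B and 7 H4 genes; 21 lie on chromosome 13 and 5 on chromosome 3. The H3c genes are not among them, since each of their probe sets carried several symbols. Where a gene had more than 1 probe set the one with the higher mean over all arrays was kept, which concerned only H2ac21 (mean log2 level 6.96 for the probe set kept and 5.14 for the other). That mean chose the probe set and is used for nothing else.

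These genes stand apart from other protein-coding genes in how their RNA is made. They lie in dense clusters, lack introns, are transcribed as cells copy their DNA, and their messenger RNA (mRNA) ends in a stem-loop bound by the protein SLBP instead of a poly(A) tail. As S phase ends the mRNA is rapidly degraded, so the genes are widely used as a mark of DNA replication. The clusters hold near-identical copies, so signal at 1 probe set can include RNA of a sister gene, and levels of single members are uncertain to that extent.

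The series compared cells of BALB/c and B6 mice by strain and phenotype: iNKT17 cells, ROR- cells and gamma-delta 17 cells, in the labels' names. Invariant natural killer T (iNKT) cells are T cells that recognise lipids, RORγt is the transcription factor of their interleukin 17 producing type, and gamma-delta T cells carry another kind of T cell receptor. The groups were BALB/c ROR- (3 arrays), BALB/c iNKT17 (3), B6 ROR- (2), B6 iNKT17 (2) and B6 gamma-delta 17 (2), with no treatment, transgene or further allele named; age, sex and organ are not given in the labels. The labels number the replicates without saying whether they came from separate animals, so every p-value rests on the scatter among these arrays alone, part of which may be technical. The labels also name frozen tissue as the RNA source beside cell names, and whether cells were pooled is not given.

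Any pair of arrays correlated at r between 0.946 and 0.986 over all probe sets. The mean of the type 17 marker list lay between 8.15 and 9.30 on the iNKT17 and gamma-delta 17 arrays and between 4.50 and 6.26 on the ROR- arrays, the highest ROR- value being BALB/c replicate 2; Cd3e, a T cell receptor subunit, lay between 11.09 and 11.75 everywhere. B6 gamma-delta 17 replicate 1 stood apart: its neutrophil list mean was 6.36 against 3.85 to 4.06 on the other arrays, its macrophage list mean 5.12 against 4.08 to 4.43 and its immature thymocyte list mean 6.23 against 4.16 to 4.74. Counts and calls that rest on gamma-delta 17 cells are given with and without this array.

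Of the 26 genes, 19 were bright enough to be tested, with at least 2 arrays above the dim level, a log2 value of 3.45 that marks the 30th percentile of named probe-set values. The 7 that were not tested are H1f6, H2ac12, H2bc1, H2bc22, H4c2, H4c8 and H4c17, with values from 1.79 to 4.13, of which 3 lay above the dim level. H1f6 and H2bc1 encode histones known from the testis; the testis-type H2A gene H2ac1 was tested, at 3.89 to 4.76 on the 12 arrays. Among those tested, 14 lay above the dim level on every array and 5 did not: H1f1 and H2bc9 were above it on 11 arrays, H4c14 on 8, and H2bc14 and H4c1 on 3 each. H4c12 lay between 9.01 and 10.21 on the 12 arrays and H1f3 between 4.07 and 4.96.

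As the mean of iNKT17 and ROR- cells, the widest strain difference among the tested members belonged to H4c9, a histone H4 gene. Its log2 level was 4.73, 4.88 and 4.19 on the BALB/c ROR- arrays, 4.37, 4.67 and 3.68 on BALB/c iNKT17, 6.05 and 7.87 on B6 ROR-, 8.20 and 8.76 on B6 iNKT17, and 8.42 and 7.19 on B6 gamma-delta 17. All BALB/c arrays lay below all B6 arrays. As the mean over iNKT17 and ROR- cells, BALB/c minus B6 was -3.30 ± 0.35 log2 units (SE; 95% confidence interval -4.07 to -2.52), or 9.83-fold lower, with an adjusted p of 0.000291 in the limma fit. It was -4.24 ± 0.50 in iNKT17 cells (adjusted p = 0.00117) and -2.36 ± 0.50 in ROR- cells (adjusted p = 0.0486).

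H2bc9, an H2B gene, read 3.83, 3.68 and 2.93 on BALB/c ROR-, 3.64, 5.07 and 3.63 on BALB/c iNKT17, 5.84 and 6.95 on B6 ROR-, 6.36 and 6.87 on B6 iNKT17, and 6.40 and 4.91 on B6 gamma-delta 17. The BALB/c and B6 arrays of iNKT17 and ROR- cells did not overlap, while gamma-delta 17 replicate 2 lay below the highest BALB/c array. The difference was -2.71 ± 0.37 (adjusted p = 0.00165), -2.50 ± 0.53 in iNKT17 cells (0.0414) and -2.92 ± 0.53 in ROR- cells (0.0208). The mean of BALB/c ROR- cells, 3.48, sits at the dim level, so the size of the difference there is uncertain.

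H1f1, a linker histone gene, read 4.22, 3.57 and 3.43 on BALB/c ROR-, 3.48, 4.32 and 3.68 on BALB/c iNKT17, 4.65 and 5.69 on B6 ROR-, 5.76 and 6.46 on B6 iNKT17, and 5.15 and 5.89 on B6 gamma-delta 17. Here too the strains did not overlap on any array. BALB/c minus B6 was -1.86 ± 0.26 (adjusted p = 0.00204), with -2.29 ± 0.37 in iNKT17 cells (0.0101) and -1.43 ± 0.37 in ROR- cells, which did not pass (0.115).

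**Figure D1:**
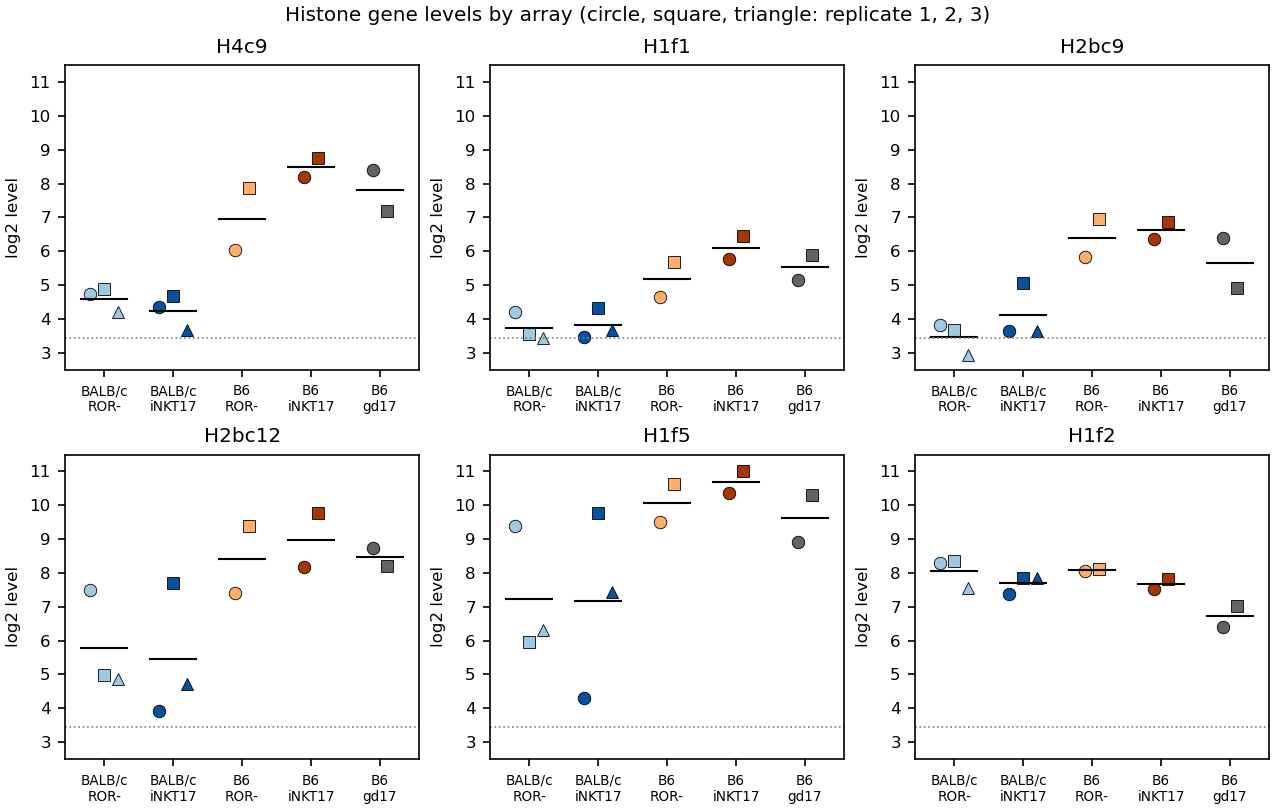
Log2 level (y axis) of 6 histone genes in the 5 groups (x axis; gd17 is gamma-delta 17); points are arrays, marked by replicate number, lines are group means, and the dotted line is the dim level of 3.45. H4c9, H1f1 and H2bc9 lay lower on every BALB/c iNKT17 and ROR- array than on any such B6 array, H2bc12 and H1f5 ran high on BALB/c ROR- replicate 1 and iNKT17 replicate 2, and H1f2 was lowest on the gamma-delta 17 arrays.

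In all, 6 of the 19 tested members were lower in BALB/c as the mean of both cell types and 0 were higher; over all 16667 genes tested, 2.79% were called lower and 1.79% higher. The other members called were H2bc12 (-3.07 ± 0.76, adjusted p = 0.0433), the H2A gene H2ac10 (-1.79 ± 0.45, 0.0451) and H2ac21 (-1.25 ± 0.29, 0.0318). The median difference over the tested members was -1.15 and 17 of 19 were below 0, beside a median of 0.02 over all genes. Arrays of the strains did not overlap for 4 members, the 3 above and H2ac21, with 2.07% of all genes lower without overlap. For H2ac21 this holds for the probe set kept only. Its other probe set overlapped, at 5.36 on BALB/c iNKT17 replicate 2 against 5.19 on B6 ROR- replicate 1, and was not fitted by itself. In these bulk samples fewer replicating cells and less histone RNA per cell cannot be told apart, and a strain difference in the sequence under the probes was not tested.

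Within iNKT17 cells 3 of 19 members (H4c9, H1f1 and H2bc9) were lower in BALB/c, where 0.81% of all genes were, and within ROR- cells 2 of 19 (H2bc9 and H4c9), where 0.84% were. The strains' arrays did not overlap for 14 of 19 members lower in BALB/c iNKT17 cells (13.8% of all genes) and for 7 of 19 lower in BALB/c ROR- cells (12.5% of all genes). The 14 include H2bc14, which was above the dim level on 3 arrays, all of B6, and so was tested only through them. Its nearest iNKT17 values were 3.156 in BALB/c and 3.1635 in B6, both below that level, so its place among the 14 carries little weight. H2bc14 is also among the 17 members below 0 as the mean of both cell types. The counts that follow, with single arrays left out, have no share over all genes of the same fit beside them. How far they move with the number of calls over all genes cannot be read from them. The ROR- count is fragile: it was 1 or 0 without any single BALB/c or B6 array of iNKT17 or ROR- cells, and B6 ROR- replicate 2 carried much of the H4c9 difference, which was -1.45 without it (adjusted p = 0.498). For the iNKT17 comparison the count was 9 without BALB/c iNKT17 replicate 2, and 1, H4c9 alone, without BALB/c iNKT17 replicate 3 or B6 iNKT17 replicate 2. For the mean of both cell types the count was 11 without BALB/c iNKT17 replicate 2 and 9 without BALB/c ROR- replicate 1. It was 3 without either B6 iNKT17 array, B6 ROR- replicate 2, BALB/c iNKT17 replicate 1 or 3, or the third BALB/c ROR- array. Without gamma-delta 17 replicate 1 it was 4. H4c9, H2bc9 and H1f1 were called, as the mean of both cell types, whichever array was left out.

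H4c14 and H2ac1 were the 2 tested members with a strain difference above 0. H4c14, an H4 gene, read 3.76, 4.08 and 4.20 on BALB/c ROR-, 4.66, 3.82 and 4.05 on BALB/c iNKT17, 3.84 and 3.27 on B6 ROR-, 3.37 and 3.01 on B6 iNKT17, and 3.99 and 3.07 on B6 gamma-delta 17. Several of these values lie below the dim level. The difference of 0.72 ± 0.21 did not pass (adjusted p = 0.0839).

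H1f5 and H2ac15 had large differences that did not pass, and their BALB/c arrays spread widely. H1f5, a linker histone gene, read 9.39, 5.95 and 6.31 on BALB/c ROR-, 4.32, 9.76 and 7.44 on BALB/c iNKT17, 9.51 and 10.63 on B6 ROR-, 10.37 and 11.02 on B6 iNKT17, and 8.92 and 10.31 on B6 gamma-delta 17. BALB/c ROR- replicate 1 and iNKT17 replicate 2 lay near the B6 values and the other 4 BALB/c arrays far below them. The difference was -3.19 ± 0.93 (95% interval -5.23 to -1.15, adjusted p = 0.0806). H2bc12 had the same layout, at 7.50, 4.99 and 4.87, then 3.91, 7.70 and 4.72 on the BALB/c arrays, against 7.41 and 9.40, then 8.17 and 9.77 in B6 ROR- and iNKT17 cells. For H2ac15, an H2A gene, the difference was -2.33 ± 0.90 (adjusted p = 0.182).

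The spread among the 6 BALB/c arrays reached at least 2 log2 units for 6 of the 19 members, against 2.66% of all genes, and for H1f5 it was 5.44. Among the 4 B6 arrays of iNKT17 and ROR- cells it reached that size for 3 members, with the share over all genes not computed. The median range of the members was 1.19 in BALB/c and 1.11 in B6, beside 0.52 and 0.39 over all genes. The range was wider in BALB/c for 14 of 19 members and for 69.1% of all genes, a comparison of 6 arrays with 4. Across the arrays the cell cycle lists moved in the same way. The mean of 39 G2 and mitosis genes was 6.90, 4.81 and 5.12 on BALB/c ROR-, 4.96, 7.63 and 5.92 on BALB/c iNKT17, 6.79 and 7.89 on B6 ROR-, 7.90 and 8.60 on B6 iNKT17, and 7.56 and 7.92 on B6 gamma-delta 17. The mean of 47 S phase and DNA replication genes was 6.64, 5.83 and 5.78, then 5.96, 7.18 and 5.95 in BALB/c, and 6.49 and 7.31, then 7.11 and 8.03, with 7.32 and 7.16 in gamma-delta 17 cells. The mean of the 19 histone genes followed them in large part, at 6.06, 5.34 and 5.22, then 4.97, 6.21 and 5.36 in BALB/c, and 6.22 and 6.96, then 6.75 and 7.21, with 6.22 and 6.57 in gamma-delta 17 cells. It was lower on gamma-delta 17 replicate 1 than on replicate 2, while the S phase list was higher there. From BALB/c ROR- replicate 2 to replicate 3 it fell while the G2/M list rose. On all 3 measures BALB/c ROR- replicate 1 and iNKT17 replicate 2 were the highest arrays of their groups.

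**Figure D2:**
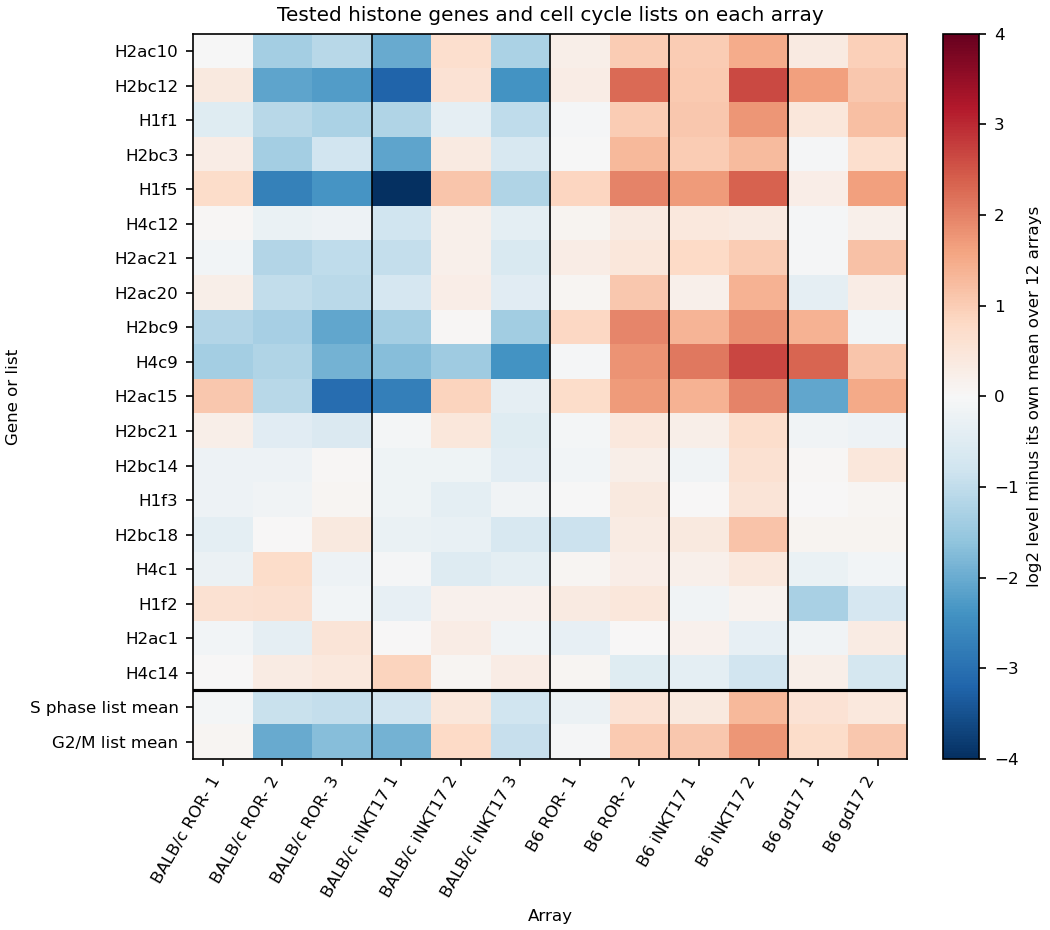
Log2 level minus each row's own mean over the 12 arrays (colour, from -4 to 4) for the 19 tested histone genes and, under the heavy line, the S phase and G2/M list means; columns are arrays, grouped by strain and cell type (gd17 is gamma-delta 17). Rows are ordered by their correlation with the mean of the other members, from H2ac10 at the top to H4c14 at the bottom, which runs opposite to the rest.

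Each histone gene was then set against the cell cycle lists within groups, by adding the list mean of each array to the model; the slope is the change of the gene in log2 units per log2 unit of the list mean. With the S phase list, 6 of 19 members had a positive slope past the threshold and 0 a negative one (H1f1, H2ac10, H2ac20, H2bc12, H2bc21 and H2bc9), where 3.05% of all genes had a positive and 0.858% a negative one. With the G2/M list 8 of 19 had a positive slope and 0 a negative one (H1f1, H1f5, H2ac10, H2ac20, H2ac21, H2bc12, H2bc3 and H4c12), where 1.67% of all genes had a positive and 0.288% a negative one. The slopes on the G2/M list mean ranged among those called from 0.27 for H4c12 (adjusted p = 0.0359) to 1.76 for H1f5 (4.71e-05), with 1.43 for H2bc12 (5.54e-05) and 0.85 for H2ac10 (4.58e-05). H4c9 had slopes of 0.24 on the G2/M list mean (adjusted p = 0.652) and 0.78 on the S phase list mean (0.191), and neither passed. Leaving out 1 array at a time gave 2 to 9 members with the S phase list and 5 to 9 with the G2/M list; the lowest S phase count was without BALB/c iNKT17 replicate 2, and the G2/M count was 5 without that array, BALB/c ROR- replicate 1, BALB/c iNKT17 replicate 3 or either B6 ROR- array. Leaving out gamma-delta 17 replicate 1, the array that stands apart, gave the same counts as leaving out replicate 2. Either way the 1 array left in that group adds nothing to a slope within groups. Without BALB/c iNKT17 replicate 2 the slopes called over all genes also fell, from 651 to 193 with the S phase list. With the G2/M list they fell from 327 to 125.

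**Figure D3:**
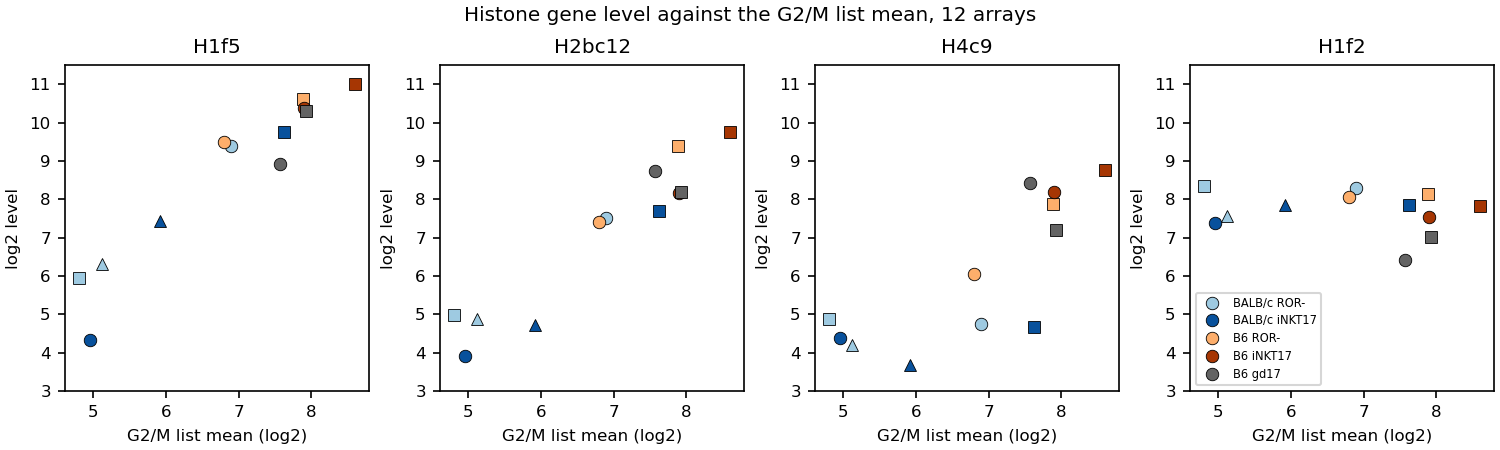
Log2 level (y axis) of 4 histone genes against the mean log2 level of the G2 and mitosis list (x axis) on the 12 arrays; colour gives the group and the marker shape the replicate number (gd17 is gamma-delta 17). H1f5 and H2bc12 rise with the list mean across the arrays of both strains, H4c9 stays at 3.68 to 4.88 on every BALB/c array whatever the list mean, and H1f2 lies between 7.37 and 8.34 on all arrays but the gamma-delta 17 arrays, at 6.40 and 7.02.

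The strain difference was then estimated with a list mean held fixed in the model. With the S phase list mean as a covariate, 3 of 19 members stayed lower in BALB/c: H4c9 at -2.50 ± 0.40 (adjusted p = 0.0122), H2bc9 at -1.67 ± 0.34 (0.0430) and H1f1 at -1.09 ± 0.22 (0.0454), where 0.684% of all genes were called lower. With the G2/M list mean only H4c9 stayed past the threshold (-2.83 ± 0.50, adjusted p = 0.0200), where 0.63% of all genes were lower, while H2bc9 stood at -1.86 ± 0.45 (0.0977) and H1f1 at -1.05 ± 0.23 (0.0682). No other member passed with the G2/M list mean in the model: H2bc12 went from -3.07 to -0.35 ± 0.33, H2ac10 from -1.79 to -0.17 ± 0.19, and H1f5 from -3.19 to 0.17 ± 0.40. The median over the 19 members was -0.35 with the S phase covariate and -0.17 with the G2/M covariate, against -1.15 without either. Strain and list mean move together over these arrays, so their parts in these differences cannot be fully told apart.

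**Figure D4:**
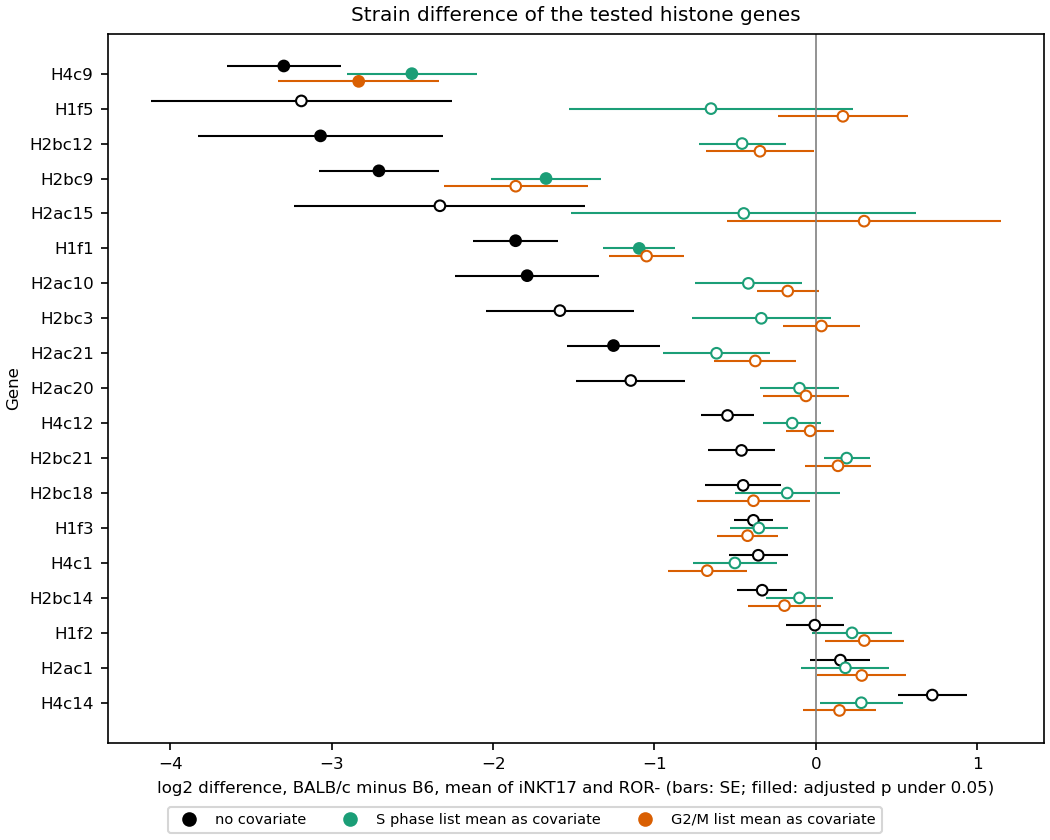
BALB/c minus B6 difference in log2 units (x axis), as the mean of iNKT17 and ROR- cells, for the 19 tested histone genes (y axis), without a covariate and with the S phase or G2/M list mean as one; bars are SE and filled points have an adjusted p under 0.05. H4c9 is filled in all 3 fits, H1f1 and H2bc9 in the fit without a covariate and the S phase fit, and H2bc12, H2ac10 and H2ac21 only without a covariate.

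The levels of H4c9 and of the gene beside it were also followed over the same arrays. H2bc12 and H4c9 are neighbouring protein-coding genes on chromosome 13. On BALB/c ROR- replicate 1 and iNKT17 replicate 2, the BALB/c arrays with the highest G2/M list means, H2bc12 stood at 7.50 and 7.70, just above the 7.41 of B6 ROR- replicate 1. H4c9 stood at 4.73 and 4.67 on those BALB/c arrays, against 6.05 on B6 ROR- replicate 1. That B6 array had a G2/M list mean of 6.79, below both of the BALB/c arrays.

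The sequences just upstream of 6 genes are shown because 3 of them kept a strain difference with the S phase covariate and the other 3 had a slope on the G2/M list. The sets are not distinct, since H1f1 also had a slope called on both lists and H2bc9 on the S phase list. Each run is the 170 bases before the annotated start in RefSeq (GRCm38.p6), 5′ to 3′ on the gene's own strand. Capitals mark matches, on either strand, to 4 motifs, none of which contains another. The CCAAT box was searched by those letters and the TATA box as TATAAA. The octamer was searched as ATTTGCAT, and the element known from H1 promoters as AAACACA. The first 3 are H4c9 at chr13:22041363-22041532 (minus strand), H1f1 at chr13:23763498-23763667 (plus strand) and H2bc9 at chr13:23543445-23543614 (minus strand).
H4c9: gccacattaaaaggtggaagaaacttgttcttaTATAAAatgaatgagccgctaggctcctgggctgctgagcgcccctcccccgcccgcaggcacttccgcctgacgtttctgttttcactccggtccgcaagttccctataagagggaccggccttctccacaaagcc
H1f1: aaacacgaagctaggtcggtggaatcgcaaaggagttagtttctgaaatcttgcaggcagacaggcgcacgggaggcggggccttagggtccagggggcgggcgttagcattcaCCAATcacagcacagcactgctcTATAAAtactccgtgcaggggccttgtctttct
H2bc9: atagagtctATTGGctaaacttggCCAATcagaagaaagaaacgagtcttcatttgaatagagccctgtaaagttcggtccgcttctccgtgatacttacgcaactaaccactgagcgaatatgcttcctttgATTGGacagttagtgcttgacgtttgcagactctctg
The other 3 are the same families' members H4c12 at chr13:21750554-21750723 (minus strand), H1f5 at chr13:21780626-21780795 (minus strand) and H2bc12 at chr13:22035651-22035820 (plus strand).
H4c12: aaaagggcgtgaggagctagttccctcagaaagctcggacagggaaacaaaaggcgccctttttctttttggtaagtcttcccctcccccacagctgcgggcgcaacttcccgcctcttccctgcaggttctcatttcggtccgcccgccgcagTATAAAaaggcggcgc
H1f5: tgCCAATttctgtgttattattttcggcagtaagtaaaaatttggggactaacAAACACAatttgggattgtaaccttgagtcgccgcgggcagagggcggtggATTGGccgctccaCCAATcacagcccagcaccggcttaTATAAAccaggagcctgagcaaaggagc
H2bc12: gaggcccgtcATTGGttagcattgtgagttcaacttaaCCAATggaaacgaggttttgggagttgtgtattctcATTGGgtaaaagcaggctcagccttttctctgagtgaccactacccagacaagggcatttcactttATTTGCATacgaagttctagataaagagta

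Of the 26 genes 24 had a RefSeq promoter entry. CCAAT was found in 19 of the 24, and in 26.6% of all 32851 promoters of the same length; TATAAA in 11 (8.40% of all); the octamer, the motif known from H2B promoters, in 7 (1.15% of all); and AAACACA, known from H1 promoters, in 6 (4.10% of all). By family CCAAT was in 5 of 5 H1, 6 of 6 H2A, 7 of 7 H2B and 1 of 6 H4 promoters, the octamer in 5 of 7 H2B and 2 of 6 H2A promoters, and AAACACA in 4 of 5 H1 and 2 of 7 H2B promoters. Both H2bc9 and H2bc12 were lower in BALB/c without a covariate; H2bc9 had no octamer in this window and H2bc12 had one 30 bases before its start. H1f1 and H1f5 both held TATAAA (33 and 28 bases before the start) and CCAAT. H4c9 had TATAAA at 137 bases and H4c12 at 16 bases before the start. These matches are letters in a window and no binding was measured.

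The members' levels over the 12 arrays were alike for most but not all. Pearson's r with the mean of the other members was 0.97 for H2ac10, 0.95 for H2bc12, H1f1 and H2bc3, 0.93 for H1f5 and 0.92 for H4c12 and H2ac21. It was 0.81 for H4c9, 0.47 for H2bc18, -0.08 for H1f2, -0.09 for H2ac1 and -0.93 for H4c14; all points share the 12 arrays and the strain split. After removing group means H4c9 stood at 0.38 and H2bc9 at 0.59, and H2ac10 at 0.95 and H2bc12 at 0.93. The 10 genes outside the histones most like the members' mean were Lrr1 (r = 0.981), Gen1, Tubb5, Kpna2, Ncapd2, Ska3, Asf1b, Bub1, Kif14 and Plk1 (0.972), by Pearson's r over the 12 arrays. Asf1b encodes a chaperone of newly made histones H3 and H4, Ncapd2 a condensin subunit, and Bub1, Ska3, Kif14 and Plk1 are mitotic genes.

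Between iNKT17 and ROR- cells none of the 19 histone genes passed the threshold without a covariate. As the mean of both strains 0 of 19 were called, with 0 at an unadjusted p under 0.05 in limma, while 12.3% of all genes were called. The median difference was 0.27, beside -0.0035 over all genes, and H4c9 stood at 0.58 ± 0.35, H1f1 at 0.51 ± 0.26 and H2bc12 at 0.11 ± 0.76 with a 95% interval of -1.55 to 1.77. In BALB/c 0 of 19 were called (0 at an unadjusted p under 0.05; 6.97% of all genes called) and in B6 0 of 19 (3 at an unadjusted p under 0.05; 5.99% of all genes called). Without BALB/c ROR- replicate 2, the ROR- array with the highest type 17 marker mean, the BALB/c count was also 0. In B6 the iNKT17 arrays lay above the ROR- arrays without overlap for 5 of 19 members, against 22.5% of all genes. There H4c9 stood at 1.52 ± 0.55 (adjusted p = 0.171) and H2bc18 at 1.05 ± 0.36 (0.150). Both passed without B6 ROR- replicate 2, which leaves 1 array in that group, taken to vary like the others. With a list mean as covariate, H2bc12 was called lower in iNKT17 cells as the mean of strains, at -1.11 ± 0.21 with the S phase list (adjusted p = 0.00392) and -0.94 ± 0.24 with the G2/M list (0.0265). It was also called in BALB/c with either list (-1.06 and -1.14) and not in B6. H1f5 was called lower with the G2/M list as the mean of strains (-0.997 ± 0.29, adjusted p = 0.0490). Of all genes, 5.65% were called lower as the mean of strains with the S phase list and 5.48% with the G2/M list. In BALB/c the shares were 3.50% and 3.35%. With so few members called beside these shares, the calls are not read as a result about histone genes. These comparisons share their arrays with the strain comparisons.

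Whether the cell type difference itself differed by strain was tested as an interaction, iNKT17 minus ROR- in BALB/c minus the same in B6. It held 0 of 19 members (2 at an unadjusted p under 0.05 in limma), and 0.084% of all genes. H4c9 stood at -1.88 ± 0.71 and H2bc18 at -1.46 ± 0.47 (adjusted p = 0.999 and 0.822). A difference between the H4c9 gap in iNKT17 cells and that in ROR- cells thus did not pass the threshold.

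In B6, 1 of 19 members was lower in gamma-delta 17 than in ROR- cells and 0 were higher, where 3.41% of all genes were lower. The member was H1f2, a widely expressed linker histone gene. H1f2 read 6.40 and 7.02 on gamma-delta 17 and 8.06 and 8.13 on B6 ROR- arrays, with 7.53 and 7.82 on B6 iNKT17. In all, 3 of 19 members were lower than in ROR- cells without overlap, against 24.7% of all genes, and 5 of 19, against 38.3%, without gamma-delta 17 replicate 1. For H1f2 the gamma-delta 17 arrays lay below all others, which ranged from 7.37 to 8.34. The difference from ROR- was -1.38 ± 0.28 (adjusted p = 0.0117), and -1.07 without the array that stands apart, gamma-delta 17 replicate 1 (adjusted p = 0.108). The call was also lost without B6 ROR- replicate 1 (-1.42, 0.0677) or 2 (-1.35, 0.0818). H1f2 did not differ detectably by strain (-0.01 ± 0.18, 95% interval -0.40 to 0.39) and had no slope on either cell cycle list past the threshold.

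Against iNKT17 cells of B6, gamma-delta 17 cells differed in 0 of 19 members (1 at an unadjusted p under 0.05 in limma), where 0.168% of all genes were called. The iNKT17 arrays lay above without overlap for 8 of 19 members, against 20.3% of all genes, and for 10 of 19, against 36.4%, without gamma-delta 17 replicate 1. H1f2 stood at 0.97 ± 0.28 in iNKT17 minus gamma-delta 17 (adjusted p = 0.331), and at 0.66 ± 0.32 without that array (0.932). Without it 0 of 19 were called (1 at an unadjusted p under 0.05 in limma). H2ac15 showed the largest gap between the gamma-delta 17 arrays, 5.43 on replicate 1 and 9.02 on replicate 2, with 8.25 to 9.50 on the B6 ROR- and iNKT17 arrays. The histone variant H2ax showed a like gap, at 8.08 and 9.95. The part of the neutrophil, macrophage and thymocyte signal of replicate 1 in these gaps was not tested.

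A further 37 histone probe sets (34 with distinct values) carried several gene symbols and so name no single gene; they include all H3c probe sets. Added to the table and fitted in the same way, 28 were bright enough to test. As the mean of both cell types 14 of the 28 were lower in BALB/c and 0 higher (5 of 8 H2A, 5 of 7 H2B, 3 of 8 H3, 1 of 4 H4 and 0 of 1 mixed), with a median of -0.93, where 2.79% of all genes were lower. With either cell cycle covariate 0 of 28 were called in this comparison, in limma. The share of all genes called lower fell as well, to 0.684% with the S phase and 0.63% with the G2/M covariate. The count depended on single arrays: it was 1 without B6 ROR- replicate 2, 2 without B6 iNKT17 replicate 2, the third BALB/c ROR- array or the third BALB/c iNKT17 array, 3 without BALB/c iNKT17 replicate 1, and 5 without BALB/c ROR- replicate 2. It reached 18 without BALB/c iNKT17 replicate 2. Within iNKT17 cells 3 of 28 were lower in BALB/c (0.81% of all genes), but 11 without BALB/c iNKT17 replicate 2 and 0 without BALB/c iNKT17 replicate 1 or 3 or B6 iNKT17 replicate 2. In gamma-delta 17 minus ROR- cells 3 of 28 were lower (3.41% of all genes), 0 without gamma-delta 17 replicate 1 or B6 ROR- replicate 2 and 1 without B6 ROR- replicate 1. Between iNKT17 and ROR- cells 1 of 28, an H4 probe set with a mean level of 3.16, below the dim level, was lower in iNKT17 cells as the mean of strains (-1.27 ± 0.28, adjusted p = 0.0101; 12.3% of all genes called either way); 0 were called without B6 ROR- replicate 2 and 2 without BALB/c ROR- replicate 1. For the fits with an array left out no share over all genes is given, so these swings are not read as particular to histone probe sets. These probe sets share sequence with each other and with the members, so they are no independent count.

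Of 28 genes tested that act in transcribing histone genes or processing their mRNA, 1 was lower in BALB/c and 0 higher. That is near the share over all genes, of which 2.79% were lower. The gene called was Casp8ap2, whose product FLASH acts in histone pre-mRNA 3′ end processing (-0.49 ± 0.09, adjusted p = 0.0104). Slbp, which encodes the stem-loop binding protein, stood at -0.56 ± 0.17 and did not pass (0.0980), and Npat, the cyclin E target that activates histone transcription, at -0.03 ± 0.12 (0.925). Npat read 6.55 to 7.06 on BALB/c and 6.54 to 7.11 on B6 iNKT17 and ROR- arrays, so the strains overlapped throughout. Between iNKT17 and ROR- cells Eri1, an exonuclease that acts on histone mRNA ends, was the 1 gene of the 28 to rise (0.58 ± 0.13, adjusted p = 0.0103), where 6.49% of all genes were called higher.

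Histone chaperones gave 0 of 26 calls by strain (9 at an unadjusted p under 0.05 in limma), where 2.79% of all genes were lower and 1.79% higher. Between iNKT17 and ROR- cells 2 of 26 rose, a share near the 6.49% of all genes called higher: Dnajc9, a chaperone of H3 and H4 (0.70 ± 0.13, adjusted p = 0.00354), and Hat1, an acetyltransferase of newly made H4 (0.49 ± 0.13, 0.0328). Among replication-independent and variant histones, 3 of 11 were lower in BALB/c, where 2.79% of all genes were. They were H2az1 (-1.21 ± 0.18, adjusted p = 0.00258), H2aj (-0.66 ± 0.09, 0.00137) and H2az2 (-0.57 ± 0.14, 0.0378). H2ax stood at -1.43 ± 0.46 and did not pass (0.104).

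Of 19 other RNAs made without a poly(A) tail, 2 were lower in BALB/c, where 2.79% of all genes were. They were Rpph1, the RNA of ribonuclease P (-1.82 ± 0.23, adjusted p = 0.000939), and Snord13 (-0.71 ± 0.13, 0.00898). Rn7sk, an RNA polymerase III transcript, stood at 0.04 ± 0.08 (adjusted p = 0.822). Of the cell cycle lists 5 of 47 S phase genes were lower in BALB/c (median -0.82), among them Rrm2 (-2.56 ± 0.56, adjusted p = 0.0248), and 12 of 39 G2 and mitosis genes (median -1.94), beside 2.79% of all genes. Of 22 quiescence genes and cell cycle inhibitors 1 was higher, Rbl2 (0.74), and 1 lower, Cdkn2c (-0.83), beside 1.79% and 2.79% of all genes.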

How the data were processed

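Total RNA of 12 samples was labelled as biotinylated cRNA for Affymetrix whole-transcript arrays, per the labels' protocols. The authors deposited log2 values of 41345 probe sets; the submitters' processing notes name the R package oligo, its version is not given in the sources used here, and neither the log base nor the summarisation step is stated. The log2 scale was read from the values, whose array medians lie between 4.10 and 4.30. The labels do not state how the cDNA was primed. Probe sets were named by platform annotation (23521 with 1 symbol, 1814 with several, 16010 with none).

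The brightest probe set of each gene was kept, and genes with at least 2 arrays above the 30th percentile were tested (16667). One limma fit (3.58.1, R 4.3.3) with a mean per group on all 12 arrays gave 9 comparisons, with Benjamini-Hochberg adjustment over all genes tested and a threshold of 0.05; it was tested on simulated data. The number of arrays limits the precision. The slopes on the cell cycle lists and the fit of several-symbol probe sets were chosen after seeing the data. The members and gene lists were chosen with earlier results of these data known.

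Named genes are the histone genes, the members past the threshold or else the 5 with the largest difference, up to 4 called genes of each other list, set anchor genes such as Slbp and Npat, and the 10 genes most like the members' mean. Replicate numbers were not taken as a pairing, and the labels do not say whether they are one. Probe sequences were not used here.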

Additional observations from a re-analysis of the deposited data

How the results depend on the processing

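Each count of histone genes called was recomputed under 23 alternatives. The counts with arrays left out have no share over all genes of the same fit beside them. As the mean of both cell types, 6 members were lower in BALB/c; the count was 3 with a trended robust variance, 3 with the S phase covariate, 1 with the G2/M covariate and 3 to 11 with single arrays left out. H4c9 was called in all 23 (-3.75 to -2.50), and H1f1 and H2bc9 in 22, all but the G2/M covariate. In iNKT17 cells the count of 3 became 6 with array weights, 1 with either covariate and 1 to 9 with arrays left out. In ROR- cells the count of 2 became 1 with median centring, quantile normalization, no filter on dim genes, array weights, the S phase covariate or only the groups compared, 0 with the trended robust variance or the G2/M covariate, and 0 to 2 with arrays left out. Between iNKT17 and ROR- cells the count of 0 became 1 with the S phase and 2 with the G2/M covariate over both strains, 1 with either in BALB/c, and 0 to 2 in B6 with arrays left out. For gamma-delta 17 minus ROR- cells the count of 1 became 2 with the S phase covariate and 0 to 1 with arrays left out. The other 2 comparisons gave 0 throughout, and no member difference called without a covariate changed sign; H1f5, which was not called by strain, went from -3.19 to 0.17 with the G2/M covariate. With the S phase covariate, 575 of 16667 genes were called higher and 749 (4.49%) lower in gamma-delta 17 than in ROR- cells. That covariate fit was not run without gamma-delta 17 replicate 1. Where no cause is shown above, the cause was not tested.

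Same-numbered samples of different groups deviated from their group means with correlations of -0.46 to 0.47, and other numbers with -0.47 to 0.52. In a group of 2 arrays the deviations mirror each other, so these ranges cannot decide whether the numbers pair the samples. Same-numbered B6 ROR- and iNKT17 arrays stood at 0.47, and those of BALB/c at -0.46, -0.34 and 0.14. The numbers were not taken as a pairing. With the replicate block the strain count was 3 (H1f1, H2bc9 and H4c9) for the mean of both cell types, 2 in iNKT17 cells and 0 in ROR- cells. Few arrays per group and values near the dim level limit what can be said of H1f1, H2bc9, H4c14, H2bc14 and H4c1.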
